A study of Mus musculus with 13 samples.

Results

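Lysosomes are acidic organelles in which proteases, glycosidases, sulfatases, lipases and phosphatases break down material taken up from outside the cell or delivered by autophagy. A proton pump keeps the lumen acidic, and heavily glycosylated membrane proteins such as LAMP1 and LAMP2 line it. Eosinophils carry specific granules that belong to the lysosome-related organelles, and CD63, a tetraspanin of both compartments, moves to the cell surface when such granules are released. The genes described here are 41 of these enzymes and membrane proteins among 41743 genes in the deposited table. They were chosen by name, as the rows whose symbol is on a list of lysosomal genes, and each of the 41 was found. By role they comprise 10 proteases, 11 glycosidases, 4 sulfatases, 8 lipid hydrolases or lipid-handling proteins, 2 phosphatases, 5 membrane proteins and granulin, a lysosomal glycoprotein precursor.

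Eosinophils were sorted as CD11b+ Siglec-F+ cells from young adult mice on a C57BL/6N background, and RPKM values (reads scaled to gene length and to the size of the library) were deposited for 13 libraries. Untreated wild-type (WT) mice gave 3 libraries each from thymus, spleen and lung. Rag-KO mice, which lack mature T and B cells and whose thymocytes stop before the CD4+ CD8+ stage, gave thymic eosinophils 10 days after an injection of hamster IgG (Rag-KO + control, 2 libraries) or of an antibody against CD3 (Rag-KO + anti-CD3, 2 libraries), which is known to drive the thymocytes of such mice on to that stage. Rag-KO + control replicate 1 and both Rag-KO + anti-CD3 libraries came from Rag2-/- mice, whereas Rag-KO + control replicate 2 came from a Rag1-/- mouse line, so that genotype and replicate cannot be told apart within this group. The deletions are germline, and the Rag-KO thymus differs from that of WT mice in its epithelium as well as its thymocytes. Enzymatic digestion released the cells of thymus and lung, whereas spleens were only mashed, and in the comparisons with spleen the effect of organ cannot be told apart from that of preparation. The sources do not say whether replicates came from separate mice, and p-values measure only the spread between these libraries, which may be technical. In bulk RNA, fewer cells of one type and less RNA per cell cannot be told apart.

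The libraries held 4765122 to 6431540 reads. The eosinophil markers Siglecf, Ccr3 and Il5ra were present in each of the 13, with Siglecf at 73.4 to 466 RPKM, whereas Epx, which encodes eosinophil peroxidase, stayed between 0.078 and 7.64 RPKM in all but Rag-KO + control replicate 2 (340 RPKM). Some libraries stood apart. In WT spleen replicate 3, mitochondrial genes took 22.0% of the summed RPKM, against 1.60% to 6.02% elsewhere, Siglecf was lowest, and the neutrophil granule genes Elane and Camp reached 1000 and 3094 RPKM. Rag-KO + control replicate 2 had Elane at 1002 RPKM, the monocyte marker Ly6c2 at 2440 RPKM and Prg2, encoding eosinophil major basic protein, at 3648 RPKM. Across genes, deviations from the group mean ran together in 4 libraries, namely the WT libraries numbered 3 and Rag-KO + control replicate 2, so results are also given for the other 9. No label ties these 4 libraries to a common run or day.

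The 41 genes together made up 0.444% to 1.26% of the summed RPKM of a library. Their summed level was 4461, 4360 and 4318 RPKM in WT thymus, 3692, 3441 and 1872 RPKM in WT spleen, and 3413, 2752 and 3526 RPKM in WT lung. It was 3709 and 4791 RPKM in Rag-KO + control and 4370 and 4040 RPKM in Rag-KO + anti-CD3. The WT thymus libraries lay above all 6 of the other WT organs, and the lowest sum belonged to WT spleen replicate 3. Rag-KO + control spanned the WT thymus range, with its 2 libraries on either side of it. A sum weighs abundant genes most, and the median of the 41 genes overlapped between WT thymus and WT spleen. This median was 28.4, 28.3 and 23.5 RPKM in WT thymus and 26.8, 24.9 and 12.1 RPKM in WT spleen. In WT lung it was 20.6, 16.4 and 20.8 RPKM. Mean levels of single genes over the 13 libraries ran from 1.87 RPKM for Ctsl, encoding cathepsin L, to 536 RPKM for Man2b1, encoding lysosomal alpha-mannosidase.

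**Figure D1:**
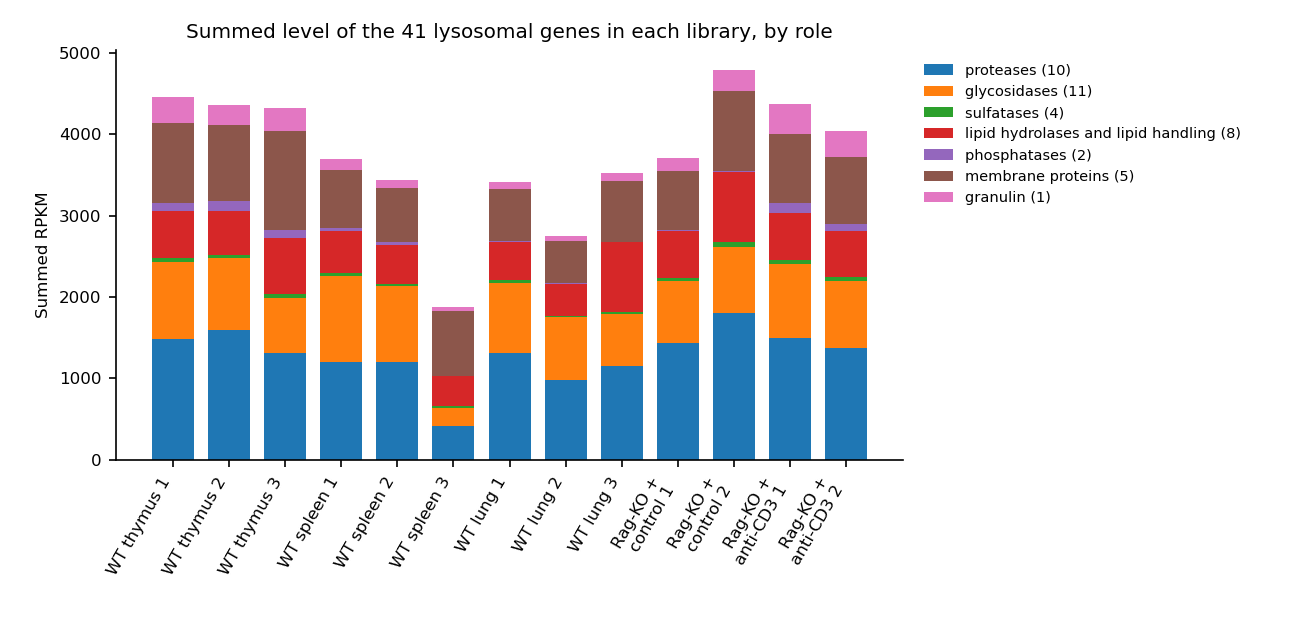
Summed RPKM (vertical axis) of the 41 lysosomal genes in each of the 13 libraries (horizontal axis), with the colours of each bar standing for the roles and the number of genes per role in brackets. The 3 WT thymus bars reach 4318 to 4461, and the bar of WT spleen replicate 3 stops at 1872.

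The 10 most abundant genes by mean RPKM covered every role but the sulfatases and phosphatases. Man2b1 was at 638, 580 and 369 RPKM in WT thymus, 794, 695 and 136 RPKM in WT spleen, 647, 580 and 426 RPKM in WT lung, 493 and 482 RPKM in Rag-KO + control, and 602 and 534 RPKM in Rag-KO + anti-CD3. The WT organs overlapped, and WT spleen replicate 3 was far below the rest. Cd63 was at 719, 656 and 908 RPKM in WT thymus, 428, 388 and 658 RPKM in WT spleen, 350, 316 and 443 RPKM in WT lung, 432 and 568 RPKM in Rag-KO + control, and 540 and 539 RPKM in Rag-KO + anti-CD3. Its WT thymus values exceeded all WT lung and Rag-KO values and overlapped WT spleen through replicate 3 of the latter. Ctsd, encoding the aspartic protease cathepsin D, was at 458, 477 and 257 RPKM in WT thymus, 612, 635 and 162 RPKM in WT spleen, 731, 506 and 360 RPKM in WT lung, 622 and 590 RPKM in Rag-KO + control, and 444 and 479 RPKM in Rag-KO + anti-CD3. Replicate 3 was the lowest library of each WT organ for this gene, and the organs overlapped.

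Psap encodes prosaposin, the precursor of the activators that present sphingolipids to their hydrolases. It was at 352, 338 and 379 RPKM in WT thymus, 319, 280 and 154 RPKM in WT spleen, 293, 231 and 591 RPKM in WT lung, 374 and 517 RPKM in Rag-KO + control, and 332 and 339 RPKM in Rag-KO + anti-CD3. Its highest values were in WT lung replicate 3 and Rag-KO + control replicate 2. Lamp1, for the abundant lysosomal membrane glycoprotein, was at 211, 233 and 263 RPKM in WT thymus, 227, 226 and 75.5 RPKM in WT spleen, 221, 158 and 228 RPKM in WT lung, 238 and 327 RPKM in Rag-KO + control, and 257 and 242 RPKM in Rag-KO + anti-CD3. Apart from WT spleen replicate 3 its libraries lay between 158 and 327 RPKM, and the WT organs overlapped. Hexa, the alpha subunit of beta-hexosaminidase, was at 113, 111 and 122 RPKM in WT thymus, 92.7, 80.3 and 29.2 RPKM in WT spleen, 78.1, 60.8 and 75.1 RPKM in WT lung, 87.6 and 110 RPKM in Rag-KO + control, and 108 and 92.0 RPKM in Rag-KO + anti-CD3. WT thymus lay above the other WT organs without overlap, by a margin that limma did not call in either comparison (log2 difference 0.92, adjusted p = 0.401, against spleen, and 0.41 without WT spleen replicate 3).

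Ctsa and Ctsz completed the abundant set together with Ctsh and Grn, which are taken up with the organ comparison. Ctsa, encoding the carboxypeptidase that protects beta-galactosidase and neuraminidase, was at 101, 108 and 35.0 RPKM in WT thymus, 100, 94.4 and 15.3 RPKM in WT spleen, 116, 89.7 and 82.2 RPKM in WT lung, 74.7 and 72.3 RPKM in Rag-KO + control, and 91.0 and 86.3 RPKM in Rag-KO + anti-CD3. Its lowest values were those of replicate 3 in WT thymus and WT spleen. Ctsz, encoding the carboxypeptidase cathepsin Z, was at 81.6, 87.7 and 64.6 RPKM in WT thymus, 84.2, 83.4 and 22.1 RPKM in WT spleen, 83.8, 59.6 and 69.0 RPKM in WT lung, 87.0 and 139 RPKM in Rag-KO + control, and 82.6 and 91.3 RPKM in Rag-KO + anti-CD3. The WT organs overlapped, and Rag-KO + control replicate 2 was the highest library.

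**Figure D2:**
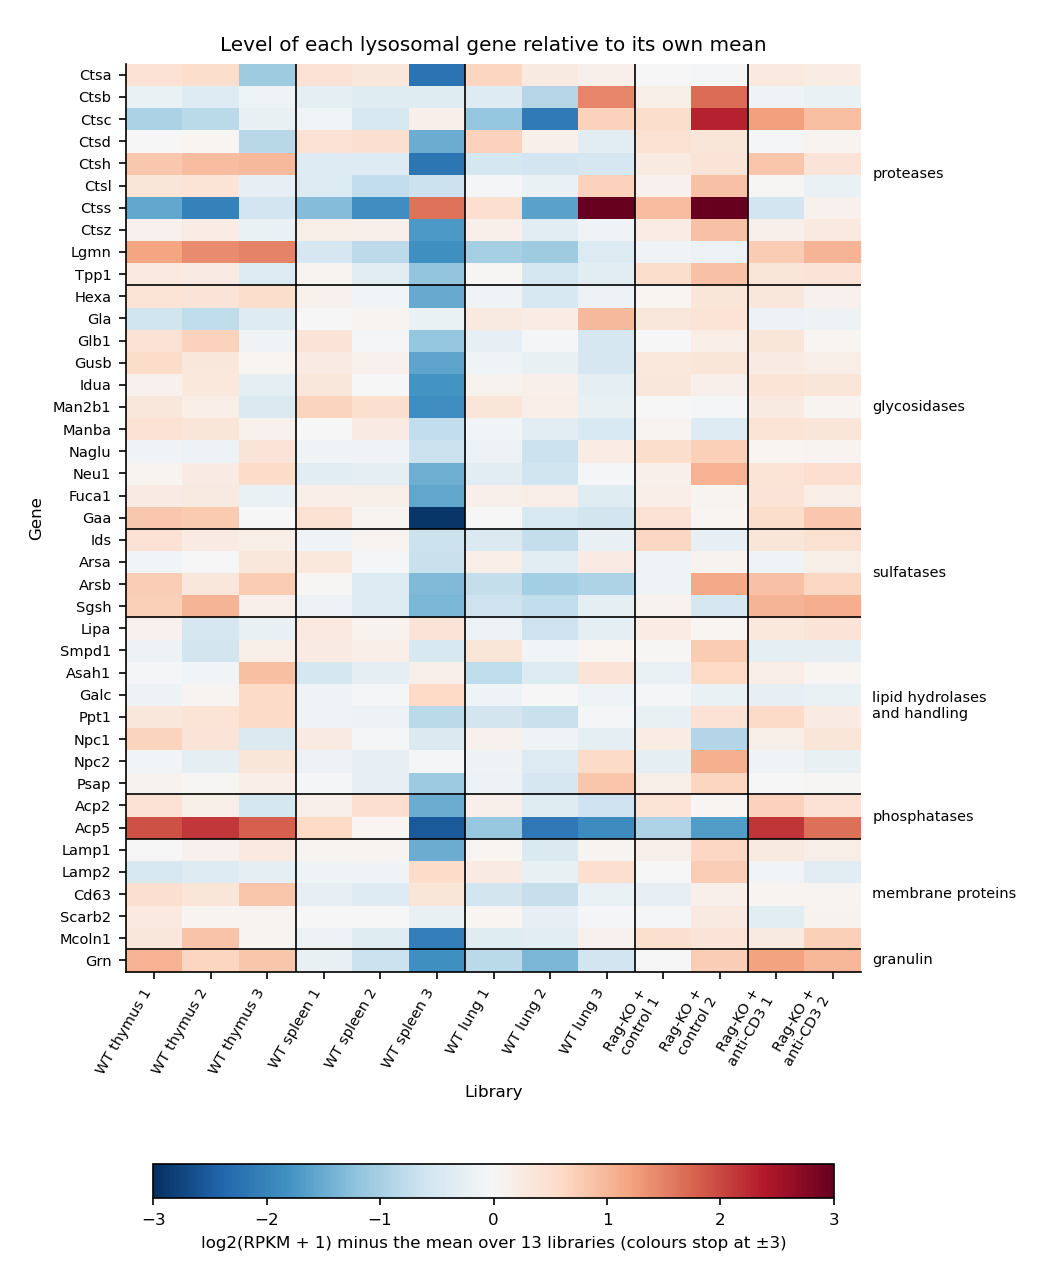
Level of each of the 41 genes (rows, ordered by role) in each library (columns), as log2(RPKM + 1) minus the gene's own mean over the 13 libraries, in colours that stop at 3 in either direction. Lgmn, Acp5, Ctsh and Grn are above their mean in the 3 WT thymus libraries, WT spleen replicate 3 is below the mean for most genes, and Ctss, Ctsc and Ctsb are highest in Rag-KO + control replicate 2.

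To find lysosomal genes that set thymic eosinophils apart, WT thymus was compared with WT spleen and with WT lung on log2(RPKM + 1) with limma. A gene was called at a Benjamini-Hochberg adjusted p under 0.05 over all genes tested and a log2 difference above 1 in size, and fold sizes on this scale understate the change of low genes. Lgmn, encoding legumain, an asparaginyl endopeptidase that also processes cathepsins, was called higher in thymus in both comparisons. Acp5, encoding tartrate-resistant acid phosphatase, was called higher in thymus than in lung. In the fit of 9 WT libraries, 1 of 41 genes was called against spleen, where 2.29% of the 9096 genes tested were, and 2 of 41 against lung, where 3.24% were. These shares of the lysosomal genes lie near those of all genes. Each of the calls was toward thymus. The median log2 difference of the 41 genes was 0.51 against spleen, beside 0.25 for all genes tested, and 0.26 against lung, beside 0.20. WT spleen replicate 3 carried much of the former, as the medians were 0.18 and 0.01 without it, with 28 of the 41 genes above 0. Without adjustment, 12 genes had a p under 0.05 against spleen, all higher in thymus, where 11.8% of all genes did, 9.0% higher and 2.79% lower. Against lung 10 did, of which 9 were higher and Gla was lower, where 15.0% of all genes did, 10.9% higher and 4.07% lower.

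Lgmn was at 96.2, 113 and 118 RPKM in WT thymus, 29.2, 23.7 and 10.9 RPKM in WT spleen, and 20.2, 19.2 and 31.0 RPKM in WT lung. Every thymus library lay above every library of the other organs, which overlapped each other. The log2 difference was 2.41 (SE 0.37, limma adjusted p = 0.00986) against spleen and 2.20 (SE 0.37, limma adjusted p = 0.0108) against lung, and the means were 5.13 and 4.65 times those of the other organs. The call against spleen was lost when any 1 WT thymus library was left out (limma, adjusted p = 0.0632, 0.0744 and 0.0598 without replicates 1, 2 and 3), with a log2 difference between 2.35 and 2.49. Against lung it was lost without WT lung replicate 1 or 2 and, again, without any 1 WT thymus library (limma, adjusted p = 0.056 to 0.0749), with a log2 difference between 2.08 and 2.29.

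Acp5 was at 101, 116 and 92.1 RPKM in WT thymus, 39.8, 26.9 and 3.68 RPKM in WT spleen, and 11.2, 5.12 and 6.3 RPKM in WT lung. Thymus lay above both other organs without overlap, and spleen overlapped lung only through spleen replicate 3. Against lung the log2 difference was 3.66 (SE 0.69, limma adjusted p = 0.0184), a 13.6-fold ratio of means. Against spleen it was 2.57 (SE 0.69, limma adjusted p = 0.114) and was not called. The call against lung was lost on leaving out any 1 of the 6 thymus and lung libraries (limma, adjusted p = 0.0652 to 0.105), with a log2 difference between 3.45 and 3.95. Without WT spleen replicate 3 the spleen difference became 1.62 and was called (limma, adjusted p = 0.0221).

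Ctsh and Grn were also highest in WT thymus, without reaching the adjusted threshold. Ctsh, encoding the aminopeptidase cathepsin H, was at 657, 719 and 744 RPKM in WT thymus, 287, 288 and 83.5 RPKM in WT spleen, and 261, 252 and 265 RPKM in WT lung. Grn, encoding progranulin, the precursor of the granulins, was at 327, 246 and 281 RPKM in WT thymus, 135, 101 and 43.1 RPKM in WT spleen, and 89.2, 60.1 and 106 RPKM in WT lung. For both genes all thymus libraries exceeded all others of WT. The log2 difference of Ctsh was 1.88 against spleen (95% interval 0.91 to 2.86, limma adjusted p = 0.0643) and 1.44 against lung (0.46 to 2.42, limma adjusted p = 0.133). That of Grn was 1.74 against spleen (0.82 to 2.67, limma adjusted p = 0.07) and 1.76 against lung (0.84 to 2.69, limma adjusted p = 0.0546).

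**Figure D3:**
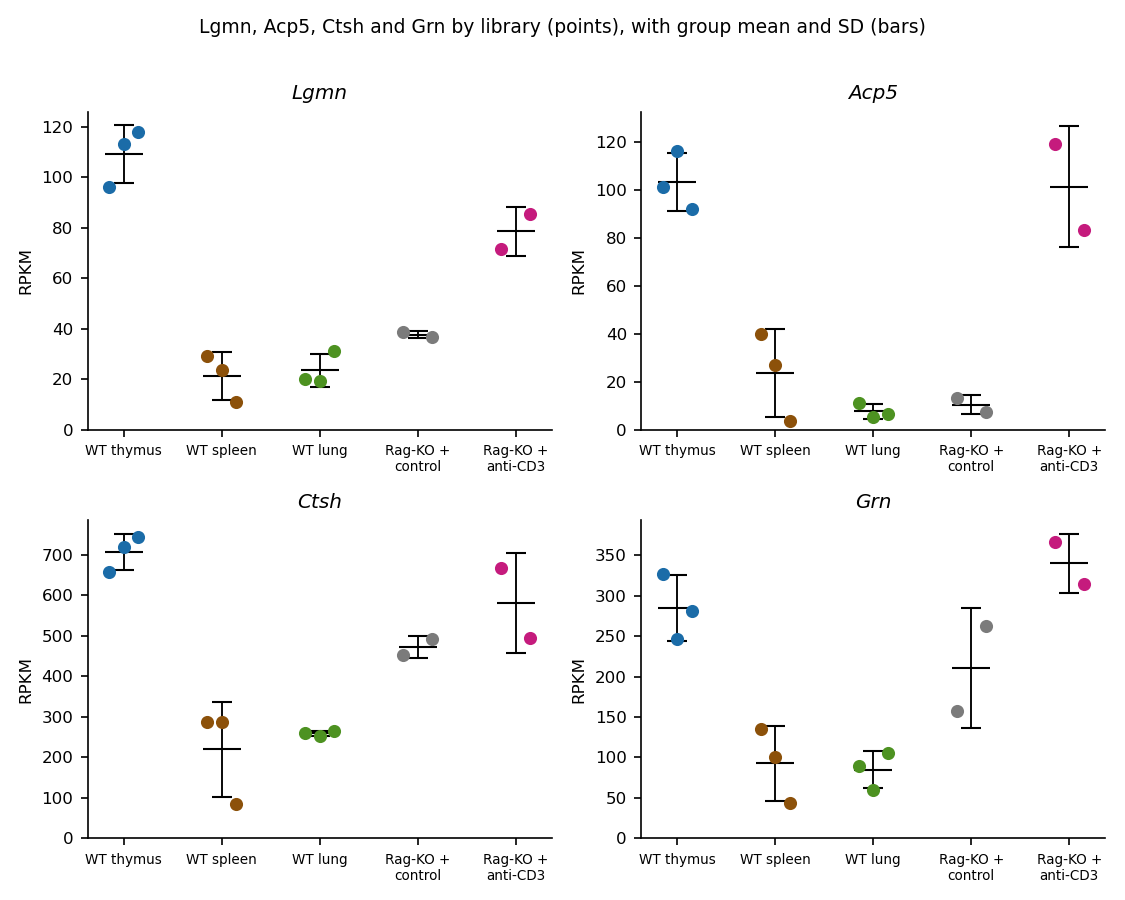
RPKM (vertical axis, from 0) of Lgmn, Acp5, Ctsh and Grn in each library (points) of the 5 groups (horizontal axis), with the group mean and SD as bars. For all 4 genes the WT thymus points lie above every WT spleen and WT lung point, and Acp5 is at 83.3 and 119 in Rag-KO + anti-CD3 against 7.5 and 13.2 in Rag-KO + control.

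The calls grew when the libraries that stood apart were left out, as did those among all genes. These libraries were picked from these same data, so a smaller spread and more calls follow in part from that choice. Without WT spleen replicate 3, 4 of 41 genes were called higher in thymus than in spleen, where 3.54% of all genes were called: Lgmn, Acp5, Ctsh (log2 difference 1.29, limma adjusted p = 0.00324) and Grn (1.27, limma adjusted p = 0.0332). Without all 4 libraries that deviated together, 5 of 41 were called against spleen, beside 5.76% of all genes, and 8 of 41 against lung, beside 8.38%. The fifth gene against spleen was Sgsh, and the lung comparison added Cd63, Arsb, Gaa and Sgsh to Lgmn, Acp5, Ctsh and Grn. Each was higher in thymus. With the replicate number as a block, which the deviations of the WT libraries allow, 1 gene, Lgmn, was called against spleen, beside 3.33% of all genes, and 5 against lung, beside 5.08%, namely Lgmn, Acp5, Grn, Arsb and Cd63.

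The summed neutrophil markers also differed between the organs, mainly through 1 gene. The summed level of 11 neutrophil markers was 876 to 3040 RPKM in WT thymus, 12258 to 51206 RPKM in WT spleen and 16385 to 20397 RPKM in WT lung, but Retnlg, which encodes a secreted resistin-like protein, supplied most of it in the spleen and lung libraries other than WT spleen replicate 3, at 290 to 579 RPKM in thymus, 12223 to 24507 RPKM in spleen and 15613 to 20005 RPKM in lung. Cxcr2 went the other way, at 15.4 to 28.7 RPKM in thymus, 1.14 to 3.03 RPKM in spleen and 5.91 to 9.3 RPKM in lung. The granule genes Elane and Mpo were at 0 in all libraries but WT thymus replicate 3, WT spleen replicate 3 and both Rag-KO + control libraries. Mmp8 was at 0.455, 0.0 and 2.18 RPKM in WT thymus, 0.0, 0.274 and 6.75 RPKM in WT spleen, and 2.57, 4.44 and 3.82 RPKM in WT lung. Ly6g was at 0.0, 0.0 and 4.46 RPKM in WT thymus, 0.182, 0.881 and 15.6 RPKM in WT spleen, and 0.184, 1.16 and 1.81 RPKM in WT lung. The summed level of 13 T cell and thymocyte markers was 15.3 to 65.3 RPKM in WT thymus and at most 3.96 RPKM in the other WT organs. The part of either cell type in the lysosomal differences was not tested.

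The remaining proteases and glycosidases were not called between the WT organs in the fit of all 9 WT libraries. Among proteases, Tpp1, encoding tripeptidyl peptidase, averaged 27.2 ± 7.03 RPKM in thymus (SD, n = 3 here and below) against 19.3 ± 8.21 RPKM in spleen and 21.3 ± 4.46 RPKM in lung. Ctsl was low throughout, at 0.629 to 4.0 RPKM over the 13 libraries. Of the 11 glycosidases, 10 had a positive log2 difference between thymus and spleen and 9 between thymus and lung. Their medians were 0.53 and 0.60, beside 0.25 and 0.20 for all genes tested. Without WT spleen replicate 3, 7 of 11 were positive against spleen. Their median was then 0.15, beside 0.01 for all genes, and Man2b1 was at -0.53. Neu1, the lysosomal sialidase, averaged 66.1 ± 11.4 RPKM in thymus against 34.9 ± 14.2 RPKM in spleen and 42.9 ± 8.59 RPKM in lung, a log2 difference of 0.98 against spleen (95% interval 0.19 to 1.78, limma adjusted p = 0.298) that was 0.59 without WT spleen replicate 3.

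Gla, encoding alpha-galactosidase A, had the opposite order. It was at 1.63, 1.33 and 2.05 RPKM in WT thymus, 2.93, 3.2 and 2.44 RPKM in WT spleen, and 3.82, 3.63 and 6.83 RPKM in WT lung. Thymus lay below both other organs without overlap, and the difference from lung was -1.07 on the log2 scale (SE 0.28, limma adjusted p = 0.0786). Gaa, the acid alpha-glucosidase that breaks down glycogen, was at 0.0912 RPKM in WT spleen replicate 3, which stands for at least 2 reads, and at 4.64 to 13.5 RPKM in the other 12 libraries. Tpp1, Neu1, Gla, Gaa and the genes of the next 2 paragraphs other than Cd63 and Acp5 were picked for description after their values were seen.

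Among the 4 sulfatases, which remove sulfate groups from glycosaminoglycans and sulfatides, the median log2 difference was 0.84 against spleen, 0.55 without WT spleen replicate 3, and 0.96 against lung. The medians of all genes tested were 0.25, 0.01 and 0.20 in the same order. Arsb, which acts on dermatan sulfate, was at 23.6, 17.9 and 24.0 RPKM in WT thymus, 14.1, 10.2 and 4.94 RPKM in WT spleen, and 8.1, 6.37 and 6.83 RPKM in WT lung. Thymus exceeded both organs in every library, with a log2 difference of 1.49 from lung (SE 0.35, limma adjusted p = 0.0546). Sgsh, which acts on heparan sulfate, was at 3.42, 4.46 and 2.01 RPKM in WT thymus, 1.4, 1.02 and 0.0475 RPKM in WT spleen, and 0.745, 0.62 and 1.24 RPKM in WT lung. The groups again did not overlap, but the lowest Sgsh value came from 1 read. Its log2 difference of 1.28 from spleen was not called (limma, adjusted p = 0.136).

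The 8 lipid genes had a median log2 difference of 0.21 in both comparisons, beside 0.25 and 0.20 for all genes tested. Their differences lay between -0.46 and 0.87. The largest was that of Ppt1, which removes fatty acids from lipidated proteins, at 32.3 ± 2.91 RPKM in thymus against 18.4 ± 4.63 RPKM in spleen and 17.5 ± 4.53 RPKM in lung (limma, adjusted p = 0.285 and 0.169). Lipa, the acid lipase for cholesteryl esters, was at 16.4 to 33.9 RPKM over all 13 libraries, and Galc, the galactosylceramidase, at 1.52 to 3.58 RPKM. Of the membrane proteins, Cd63 had a log2 difference of 1.04 from lung (95% interval 0.39 to 1.7, limma adjusted p = 0.101) and Mcoln1, an endolysosomal calcium channel, one of 1.28 from spleen (95% interval 0.21 to 2.36, limma adjusted p = 0.321). The latter was 0.69 without WT spleen replicate 3, where Mcoln1 was at 0.382 RPKM from at least 4 reads. Lamp2 was the membrane protein with lower values in thymus, at 28.4 to 32.5 RPKM there, 36.6 to 58.9 RPKM in spleen and 33.8 to 57.1 RPKM in lung. Scarb2, which carries beta-glucocerebrosidase to the lysosome, was among the steadiest of the 41 genes, at 5.99 to 9.79 RPKM. The other phosphatase, Acp2, did not share the pattern of Acp5 and averaged 4.53 ± 1.74 RPKM in thymus against 4.03 ± 2.87 RPKM in spleen and 3.43 ± 1.27 RPKM in lung.

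Between WT lung and WT spleen, 0 of the 41 genes were called by limma or by limma-voom on recovered reads, where limma called 0.704% of all genes, and 2 had an unadjusted p under 0.05, beside 5.66% of all genes. These were Ctsl, higher in lung, and Lipa, higher in spleen. The median log2 difference was 0.16, beside 0.07 for all genes, and turned to -0.18, beside -0.18 for all genes, without WT spleen replicate 3. In the 9 libraries, 2 of 41 were called lower in lung, beside 2.07% of all genes: Acp5 (log2 difference -1.96, limma adjusted p = 0.00719) and Ctsc (-1.35, limma adjusted p = 0.034). Without WT spleen replicate 3 alone, 1 of 41 was called, beside 0.997% of all genes, and this was Acp5 (-2.05, limma adjusted p = 0.0191).

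**Figure D4:**
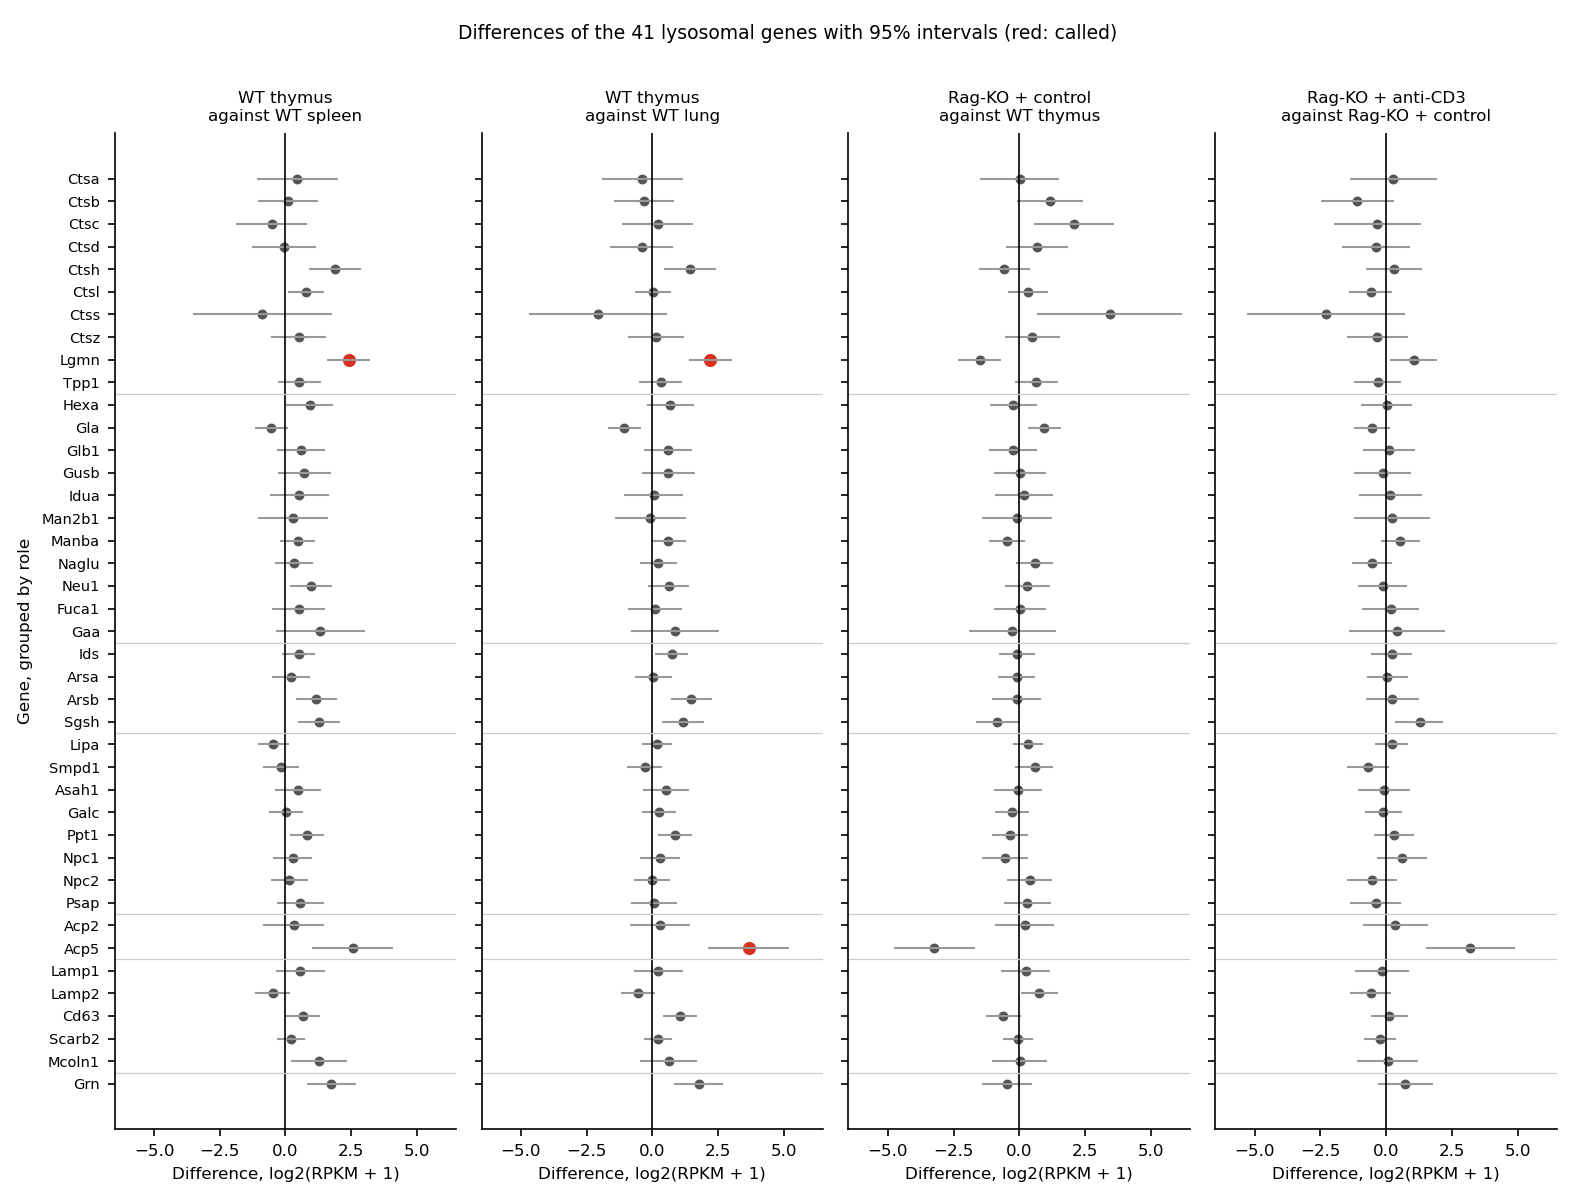
Difference in log2(RPKM + 1) of each of the 41 genes (rows, grouped by role) in 4 comparisons (panels), first group minus second, with the estimate of limma as a point, its 95% interval as a line and called genes in red. Lgmn is red in both WT panels and Acp5 in the panel against WT lung, and in the Rag-KO panels Acp5 is at -3.24 and 3.20 with no gene in red.

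The Rag-KO groups were compared to ask whether the lysosomal genes of thymic eosinophils differed with genotype and treatment. WT mice were untreated, so genotype cannot be told apart from injection in the comparisons with WT thymus. Both anti-CD3 libraries were Rag2-/- and control replicate 2 was Rag1-/-, so treatment and mouse line cannot be fully told apart between the Rag-KO groups. Any pair of the 3 comparisons has the libraries of 1 group in common, so values are given side by side. No lysosomal gene was called in any of the 3 comparisons in the fit of all 13 libraries. The largest differences belonged to Acp5, which was low in Rag-KO + control and near the WT thymus level after anti-CD3, and to Ctss, which was high in Rag-KO + control. Between Rag-KO + control and WT thymus, 0 of 41 genes were called by limma and 0 by limma-voom, where limma called 1.09% of 9763 genes. With no adjustment 6 had a p under 0.05, 4 higher and 2 lower in Rag-KO + control, beside 7.71% of all genes, 4.39% higher and 3.32% lower. Between Rag-KO + anti-CD3 and Rag-KO + control, 0 of 41 were called by either tool, beside 0.133% of all genes by limma. There 3 had an unadjusted p under 0.05, all higher after anti-CD3, beside 5.22% of all genes, 1.98% higher and 3.25% lower. Between Rag-KO + anti-CD3 and WT thymus, 0 of 41 were called by either tool, beside 0.0819% by limma. There 1 had an unadjusted p under 0.05, higher after anti-CD3, beside 2.65% of all genes, 1.03% higher and 1.62% lower. The medians of the 41 genes were 0.02, 0.04 and 0.08 on the log2 scale, beside 0.00, -0.03 and -0.01 for all genes.

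Acp5 was at 13.2 and 7.5 RPKM in Rag-KO + control and at 119 and 83.3 RPKM in Rag-KO + anti-CD3, beside 92.1 to 116 RPKM in WT thymus. The control libraries lay far below both other thymus groups, which overlapped each other. The log2 difference of control from WT thymus was -3.24 (95% interval -4.78 to -1.69, limma adjusted p = 0.0579), that of anti-CD3 from control 3.20 (1.5 to 4.89, limma adjusted p = 0.212), and that of anti-CD3 from WT thymus -0.04 (limma, adjusted p = 1.0). Lgmn was at 38.5 and 36.5 RPKM in Rag-KO + control and at 71.7 and 85.3 RPKM in Rag-KO + anti-CD3, beside 96.2 to 118 RPKM in WT thymus. The 3 groups did not overlap, and anti-CD3 lay between control and WT. T cell and thymocyte markers, summed over 13 genes, were also lowest in control, at 7.71 and 2.96 RPKM in control, 37.3 and 33.0 RPKM after anti-CD3 and 15.3 to 65.3 RPKM in WT thymus. Ptcra, on the same list, was instead highest in control, at 0.787 and 0.617 RPKM. It was at 0.296 and 0.546 RPKM after anti-CD3 and 0.143, 0.153 and 0.0 RPKM in WT thymus. The part of such cells in the Acp5 and Lgmn levels was not tested. The log2 differences of Lgmn were -1.51 (95% interval -2.32 to -0.7, limma adjusted p = 0.0931), 1.04 (0.16 to 1.92, limma adjusted p = 0.733) and -0.47 in the same order.

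Grn was at 158 and 263 RPKM in Rag-KO + control and at 366 and 314 RPKM in Rag-KO + anti-CD3, with control overlapping WT thymus. Ctsh was at 453 and 492 RPKM in control and 668 and 494 RPKM after anti-CD3, and all of these but 1 were below the WT thymus libraries. Sgsh was at 1.91 and 0.897 RPKM in control and at 4.52 and 4.8 RPKM after anti-CD3, a log2 difference of 1.27 (95% interval 0.35 to 2.18, limma adjusted p = 0.488). Gla, low in WT thymus, was at 4.02 and 4.27 RPKM in control and at 2.5 and 2.57 RPKM after anti-CD3, so that control and WT thymus did not overlap (log2 difference 0.95, limma adjusted p = 0.189).

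Several of these differences passed the threshold in smaller fits. In the 7 thymus libraries alone, 3 of 41 genes were called between control and WT thymus, beside 2.24% of all genes: Acp5 (log2 difference -3.24, limma adjusted p = 0.0023), Lgmn (-1.51, limma adjusted p = 0.00817) and Ctss (3.45, limma adjusted p = 0.043). In the same libraries 1 of 41, Acp5, was called between anti-CD3 and control, beside 0.205% of all genes (limma, adjusted p = 0.0229). In the 9 libraries, where control has 1 library that is assumed to vary like the others, 5 of 41 were called between control and WT thymus, beside 4.36%, with Acp5 and Lgmn lower and Ctss, Ctsc and Gla higher in control. There 2 of 41, Acp5 and Lgmn, were called higher after anti-CD3 than in control, beside 1.75%, and 1 of 41, Ctsc, higher after anti-CD3 than in WT thymus, beside 1.4%. The summed level of 10 dendritic cell markers was 174 and 346 RPKM after anti-CD3, 129 and 119 RPKM in control and 31.3 to 47.7 RPKM in WT thymus. It came mostly from the MHC class II genes and Cd74, while Clec9a and Xcr1, which define a dendritic cell subset, did not exceed 0.115 RPKM in any thymus library. Cd209a was at 1.28 and 2.48 RPKM after anti-CD3, 1.36 and 0.321 RPKM in control, and 0.0, 0.133 and 0.0 RPKM in WT thymus. Ccr7 was instead highest in WT thymus, at 0.837, 0.299 and 0.0786 RPKM, against 0.288 and 0.0 RPKM after anti-CD3 and 0.0 in control. The part of dendritic cells in the Ctsc level was not tested.

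Some cathepsins, picked after their values were seen, reached their highest levels in single libraries. Ctss, encoding cathepsin S, which trims the invariant chain in antigen-presenting cells, was at 4.61, 3.04 and 9.96 RPKM in WT thymus, 5.67, 3.55 and 49.8 RPKM in WT spleen, 22.2, 4.43 and 142 RPKM in WT lung, 30.0 and 150 RPKM in Rag-KO + control, and 10.1 and 16.9 RPKM in Rag-KO + anti-CD3. Ctsc, encoding the dipeptidyl peptidase that activates granule serine proteases, was at 9.46, 10.4 and 16.1 RPKM in WT thymus, 17.9, 13.3 and 21.4 RPKM in WT spleen, 7.96, 3.63 and 31.2 RPKM in WT lung, 27.7 and 98.8 RPKM in Rag-KO + control, and 46.1 and 36.7 RPKM in Rag-KO + anti-CD3. The highest library of every WT organ was replicate 3 for both genes, and the highest of all was Rag-KO + control replicate 2. Ctsb, encoding cathepsin B, stayed between 28.6 and 59.7 RPKM in 11 libraries and reached 148 RPKM in WT lung replicate 3 and 171 RPKM in Rag-KO + control replicate 2. Log2 differences of control from WT thymus were 3.45 (95% interval 0.69 to 6.2) for Ctss, 2.08 (0.57 to 3.59) for Ctsc and 1.16 (-0.1 to 2.43) for Ctsb, and none was called (limma, adjusted p = 0.387, 0.291 and 0.736).

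Some macrophage and monocyte markers were also highest in these libraries. The summed level of 16 such markers was 2733 RPKM in Rag-KO + control replicate 2, 643 RPKM in WT spleen replicate 3 and 494 RPKM in WT lung replicate 3, and 237 to 430 RPKM in the other 10 libraries. Ly6c2 carried the highest sum. Csf1r, the receptor of macrophage colony-stimulating factor, was at 30.0 to 189 RPKM, lowest in WT spleen replicate 3, and Slc40a1, the iron exporter, was lowest in Rag-KO + control replicate 2 at 31.0 RPKM. Ly6c2 was at 2440, 349 and 142 RPKM in the 3 libraries with the highest sums and at 6.79 to 79.7 RPKM elsewhere, and Ccr2 at 20.4, 9.59 and 7.66 RPKM against at most 2.54 RPKM. Cd5l was at 0 in all thymus libraries, and Timd4 and Spic in all WT lung libraries. The part of such cells in the cathepsin levels was not tested. Lgmn was at 38.5 and 36.5 RPKM in Rag-KO + control replicates 1 and 2. Ly6c2, at 79.7 and 2440 RPKM, supplied most of the difference between their marker sums of 293 and 2733 RPKM. The part of such cells in the Lgmn level was not tested either.

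**Figure D5:**
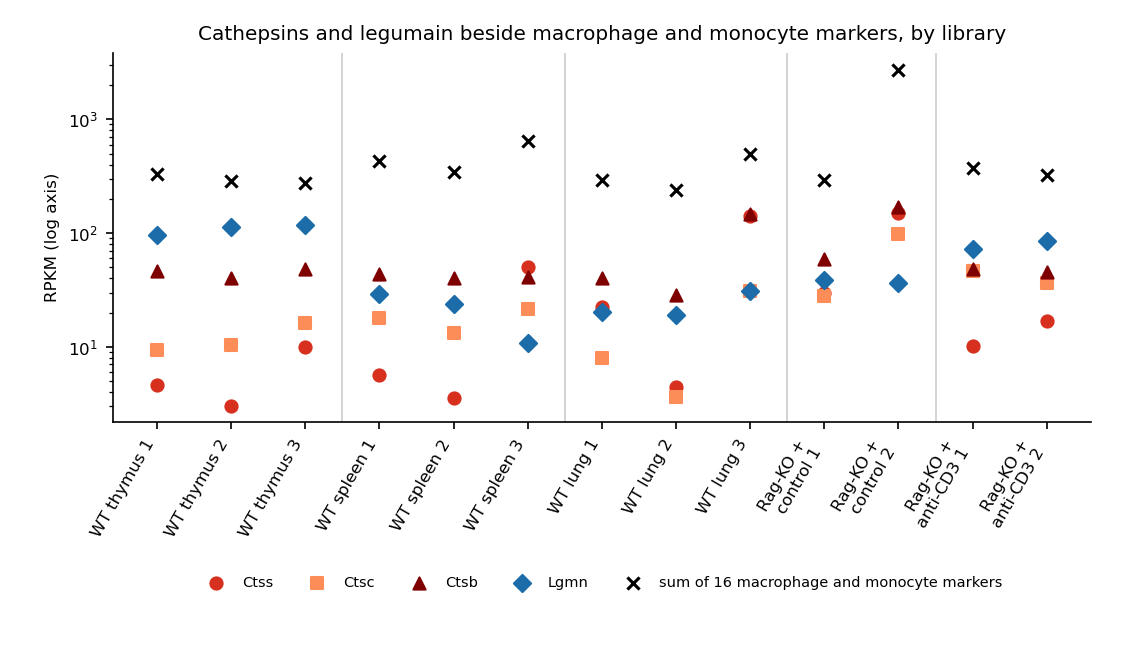
RPKM on a log axis of Ctss, Ctsc, Ctsb and Lgmn in each of the 13 libraries (horizontal axis), beside the summed RPKM of 16 macrophage and monocyte markers (crosses). Ctss reaches 142 in WT lung replicate 3 and 150 in Rag-KO + control replicate 2, where the marker sums are 494 and 2733. Ly6c2 supplies 2440 of the latter, and Lgmn is at 38.5 and 36.5 in the control group.

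Other genes of the same organelle were read from lists drawn up by function. Of 17 subunits of the proton pump, 16 were tested and 1 was called against each organ, higher in thymus. Of all genes, 2.29% were called against spleen and 3.24% against lung. Without adjustment, 3 subunits had a p under 0.05 against spleen and 2 against lung, beside 11.8% and 15.0% of all genes. The called subunit was Atp6v0a1, a membrane subunit of the pump, at 10.4 ± 1.22 RPKM in WT thymus, 2.09 ± 0.14 in spleen and 1.8 ± 0.846 in lung (log2 differences 1.88 and 2.07, limma adjusted p = 0.00993 and 0.00398). Of further genes tested, 16 were membrane proteins, 17 sorting receptors and regulators, and 4 cystatins and related inhibitors. None was called by limma between thymus and another WT organ. In these lists, 0, 0 and 0 had an unadjusted p under 0.05 against spleen, beside 11.8% of all genes, and 1, 1 and 0 against lung, beside 15.0%. No gene of these lists was called by limma in a Rag-KO comparison. Among the 17 proton pump subunits tested there, 1 had an unadjusted p under 0.05 between control and WT thymus. The further membrane proteins, sorting receptors and regulators, and cystatins gave 1, 0 and 1, and 7.71% of all genes did. Between anti-CD3 and control, the same lists gave 0, 0, 1 and 0 in this order, beside 5.22%. Between anti-CD3 and WT thymus each gave 0, beside 2.65%.

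Many lysosomal promoters carry the CLEAR element, a short palindromic sequence bound by TFEB and related factors, and promoters are shown here because Lgmn and Acp5 were both called between WT organs. RefSeq promoter windows of GRCm38.p6 were given for 37 of the 41 genes, and Ctsb, Asah1, Ctsh and Npc1 were not among them. The core CACGTG, searched on both strands in the 250 bases before each start, was found for 12 of 37 lysosomal genes (32.4%), 6.86% of 27025 genes with a window and 10.4% of the 7335 of these tested between WT organs. The longer GTCACGTG, which contains it, was found for 10 (27.0%, beside 2.11% of all genes and 4.21% of those tested) and the palindrome TCACGTGA, which also contains it, for 4 (10.8%, beside 0.907% and 2.06%). Lgmn held 1 core in 1 of its 2 windows, inside the annotated span of the gene, at chr12:102439093-102439342 on the minus strand, with the core starting 49 bases before the start site. Lamp1, at chr8:13158911-13159160 on the plus strand, held 4 cores, and none was found in any of the 3 windows of Acp5, of which that at chr9:22135747-22135996 on the minus strand is shown. The Lamp1 and Acp5 windows were picked for display after the matches were seen. Capitals mark CACGTG, and each run is read 5′ to 3′ toward the gene.
Lgmn: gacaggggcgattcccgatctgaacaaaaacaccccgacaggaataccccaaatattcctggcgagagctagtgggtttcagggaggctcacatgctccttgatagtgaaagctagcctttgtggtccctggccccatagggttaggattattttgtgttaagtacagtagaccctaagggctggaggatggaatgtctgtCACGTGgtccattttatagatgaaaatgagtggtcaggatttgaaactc
Lamp1: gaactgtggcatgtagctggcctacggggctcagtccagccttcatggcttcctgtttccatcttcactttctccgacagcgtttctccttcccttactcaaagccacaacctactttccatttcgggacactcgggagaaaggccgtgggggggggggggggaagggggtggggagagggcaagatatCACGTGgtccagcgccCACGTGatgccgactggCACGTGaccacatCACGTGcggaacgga
Acp5: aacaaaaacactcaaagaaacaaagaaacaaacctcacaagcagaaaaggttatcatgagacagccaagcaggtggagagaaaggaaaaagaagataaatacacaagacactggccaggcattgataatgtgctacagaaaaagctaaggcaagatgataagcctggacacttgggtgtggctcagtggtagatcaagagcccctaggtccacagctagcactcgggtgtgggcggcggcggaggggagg
The Lgmn window held the core and the Acp5 window did not. Lamp1, with 4 cores, had WT thymus values of 211 to 263 RPKM that overlapped those of spleen and lung. A match is a description of the letters in the window and not a measured binding site.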

How the data were processed

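Sorted eosinophils in 5 groups of libraries, of which the 3 WT organs may share mice, were sequenced on an Ion Proton instrument after SMART-seq amplification. With CLC Genomics Workbench, the authors turned the reads into RPKM values (build mm10 per the submitters' processing notes), and the deposited table gives them for 41743 genes and 13 libraries, scaled by library total only. Mapping and counting settings are not given in the sources used here.

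The 41 genes and all lists were chosen with earlier results of these data known. RPKM values were tested as log2(RPKM + 1) with limma 3.58.1 (R 4.3.3), letting the prior variance follow mean intensity, and p-values were adjusted by Benjamini-Hochberg over all genes of a fit. The WT organs were compared over 9096 genes that reached 1 RPKM in 3 or more of 9 libraries (6 residual degrees of freedom), and the Rag-KO groups over 9763 genes that reached 1 RPKM in 2 or more of 13 libraries (8 degrees). All 41 genes passed both filters. Reads were recovered from the RPKM values with annotated gene lengths (5888 genes whole within 0.001 in every library) or with the smallest length that gave whole reads (11178 genes), so that read numbers of the latter are lower bounds. Without molecular identifiers, copies made by amplification cannot be told apart, so the error of read numbers is at least counting error. The script was tested on simulated data.

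The rule for named genes took every called gene and the 10 with the highest mean RPKM, and from other lists the called genes, apart from a list of further hydrolases that is not reported here. Replicate numbers were checked from the data, since nothing ties them to animals: deviations of WT libraries with the same number correlated at 0.31 to 0.578 in all 9 pairs, and those with different numbers at -0.538 to 0.423, with each negative value involving replicate 3. Among replicates 1 and 2 the ranges were 0.31 to 0.515 and 0.26 to 0.423. The alternatives were pseudocounts of 0.1 and 5, no filter, quantile and upper-quartile scaling, no fold limit, a replicate block, limma-voom on recovered reads, the study's Dunnett comparisons on RPKM, the 7 thymus libraries alone, the 9 libraries that did not deviate together, and leaving out each library in turn.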

Additional observations from a re-analysis of the deposited data

How the results depend on the processing

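The counts of called lysosomal genes depended on the setting, in the order thymus against spleen, thymus against lung, lung against spleen, control against WT thymus, anti-CD3 against control and anti-CD3 against WT thymus. As reported they were 1, 2, 0, 0, 0 and 0. In the 9 libraries left after setting aside the 4 that deviated together they were 5, 8, 2, 5, 2 and 1. With quantile normalization they were 3 and 4 for the thymus comparisons and 2 for control against WT thymus, beside 2.56%, 4.0% and 1.45% of all genes. With upper-quartile scaling the same comparisons gave 2, 4 and 2, beside 2.36%, 3.47% and 1.25%. With a pseudocount of 5, thymus against lung gave 4 and control against WT thymus 1, beside 2.04% and 0.83%. With the replicate block, thymus against lung gave 5 and control against WT thymus 2, beside 5.08% and 2.24%, where numbers are shared without pairing the samples, and the block changed no other count. The Dunnett comparisons on RPKM, unadjusted over genes, gave 6 and 8, beside 5.67% and 8.01% of all genes. The 7 thymus libraries alone gave 3 for control against WT thymus and 1 for anti-CD3 against control. Leaving out each library in turn gave 0 to 4, 0 to 1, 0 to 1, 0 to 0, 0 to 0 and 0 to 0, beside 0.379% to 3.54%, 0.99% to 2.31%, 0.133% to 0.997%, 0.156% to 1.74%, 0.0% to 0.936% and 0.0103% to 0.0926% of all genes. Where 1 library was left in a group, its spread was taken from the other groups. Of these alternative counts, 60 equalled the reported one or lay within 1.5 times it, and 31 did not. Counts of 0 beside a reported 0 are among the 60, so this tally does not measure how stable the calls were. Calls were mostly made on large differences, so counting sign changes among called and other differences does not test the calls. None of the 23 gene differences called in any of these fits changed direction. Of the 58 other differences of the 12 named genes, 30 changed sign at least once. Without WT spleen replicate 3, for example, Man2b1 and Ctsa went to -0.53 and -0.42 between thymus and spleen. Quantile and upper-quartile scaling moved the median of all genes between thymus and spleen from 0.25 to -0.02 and 0.03, and that of the lysosomal genes from 0.51 to 0.25 and 0.24. The median difference from lung moved from 0.26 to 0.08 with quantile normalization and to 0.51 in the 9 libraries. The cause of these shifts was not tested. At this depth the lowest values, such as those of Gaa and Sgsh in WT spleen replicate 3, rest on 1 or 2 recovered reads.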
